A study of Mus musculus with 2 samples.

Results

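The genes described here are 10 antioxidant enzyme genes of the mouse, matched by symbol among 43346 genes in the deposited tables. They comprise the 6 peroxiredoxin genes Prdx1 to Prdx6, the catalase gene Cat, the superoxide dismutase genes Sod1 and Sod2, and the glutathione peroxidase gene Gpx1. They were measured by paired-end sequencing of polyadenylated RNA in G1E-ER4, an immortalised male mouse erythroid progenitor line. In this line endogenous Gata1 is disrupted, and the erythroid transcription factor GATA1 is put back as a form that estradiol switches on. All cells had received 10 nM 17beta-estradiol for 3 h. The labels give 1 group with 2 biological replicates but a shared cell sample record, so part or all of their spread may be technical. Untreated cells were not analysed here, so each value is a level after estradiol and not a response to it. A single engineered line is the only model.

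Red cells carry oxygen on heme iron, which releases superoxide and hydrogen peroxide, and they must remove both without a nucleus to replace damaged protein later. Superoxide dismutases turn superoxide into hydrogen peroxide. Catalase, glutathione peroxidases and peroxiredoxins then reduce the peroxide. A peroxiredoxin does so with a peroxidatic cysteine that is oxidised in each cycle and, in most members, reduced again by thioredoxin. Gpx1 carries selenocysteine in the place of such a cysteine, which the ribosome inserts at a TGA codon. Prdx2 is known as one of the most abundant proteins of the mature red cell.

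Replicate 1 held 31126956 expected counts and replicate 2 held 57853617. At an equal share of the library, relative counting error is thus smaller in replicate 2. Prdx1, Prdx3 and Gpx1 had fewer counts in replicate 2, and for them it was larger there. For a gene with no count the limit is 3 counts, which is 9.64e-06% of replicate 1 and 5.19e-06% of replicate 2. All 9 erythroid markers examined reached 1 TPM in both libraries (TPM corrects counts for transcript length and gives every library an equal total). Their summed level was 2254 TPM in replicate 1 and 17399 TPM in replicate 2. Gata1 itself was listed at 190.3 and 799 TPM, and the tables do not separate a transgene from the endogenous gene. Of the granulocyte and monocyte markers, 4 of 7 had no count in either library (Lyz2, Ly6g, Cd14 and Itgam), and the 7 summed to 0.80 and 0.080 TPM. Cd3e and Cd8a among 5 lymphocyte markers, Ppbp among 5 megakaryocyte markers, Mcpt4, Tpsb2 and Fcer1a among 5 mast cell markers, and Pdgfra, Dcn and Lum among 5 fibroblast markers also had no count. The summed level was 1.06 and 2.43 TPM for lymphocyte, 12.7 and 14.7 TPM for megakaryocyte, 20.9 and 47.0 TPM for mast cell (nearly all from Kit) and 0.52 and 0.54 TPM for fibroblast markers.

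The catalytic codon and its neighbours show how the family divides. The same codon later separates transcripts whose annotated coding sequence holds it from the other transcripts. Each line gives 27 bases of coding sequence, 5′ to 3′ on the gene's strand, read from the GRCm38 genome with GENCODE M21 models. Capitals mark the peroxidatic cysteine codon, or the selenocysteine codon of Gpx1.
Prdx1: tttacttttgtgTGTcccacggagatc
Prdx2: ttcacttttgttTGCcccacggagatc
Prdx3: ttcacatttgtgTGTcctacagaaatt
Prdx4: ttcacctttgtgTGTccaactgaaatc
Prdx5: tttacacctggcTGTtctaagacccac
Prdx6: tttaccccagtgTGCaccacagaactt
Gpx1: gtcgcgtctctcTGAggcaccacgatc
The codon is number 52 in Prdx1, 51 in Prdx2, 109 in Prdx3, 127 in Prdx4, 96 in Prdx5, and 47 in both Prdx6 and Gpx1. Prdx3 and Prdx4 carry leader sequences for the mitochondrion and the secretory pathway before it, and their coding sequences are longer, with 771 and 822 bases against 597 in Prdx1 and 594 in Prdx2. Within the window Prdx1 and Prdx2 matched at 24 of 27 bases, and pairs among Prdx1 to Prdx4 matched at 20 to 24. Prdx5, the atypical member that forms its disulphide within a single chain, matched the others at 12 to 14 bases. Prdx6, which has no resolving cysteine and is reduced through glutathione, matched Prdx1 to Prdx4 at 16 to 18 bases. Over the aligned coding sequence Prdx1 and Prdx2 were 71.0% identical, Prdx1 and Prdx4 71.4% and Prdx2 and Prdx4 74.1%. Prdx1 and Prdx3 were 70.5% identical, Prdx2 and Prdx3 68.4% and Prdx3 and Prdx4 65.7%. Pairs of Prdx1 to Prdx4 with Prdx5 ran from 58.4% to 67.1%. The pair of Prdx3 and Prdx4 lay within that range, so the division seen in the window was not clear over the whole coding sequence. In the alignments the longest identical run was 23 bases, between Prdx2 and Prdx4.

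All 10 members had at least 1 TPM in both libraries, which 8777 of the 43346 genes did. By mean level the order was Sod1, Gpx1, Prdx5, Cat, Prdx6, Sod2, Prdx4, Prdx2, Prdx3 and Prdx1. Of the 45 possible pairs of members, 38 stood in the same order in both libraries. Among the 9 neighbouring pairs in that order, 5 did. Cat and Prdx6, Sod2 and Prdx4, Prdx4 and Prdx2, and Prdx2 and Prdx3 changed places between the libraries, so their order is not larger than the spread. The 10 genes together made up 2730 TPM in replicate 1 and 1659 TPM in replicate 2. Sod1 and Gpx1 held 73.9% of that in replicate 1 and 56.0% in replicate 2.

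**Figure D1:**
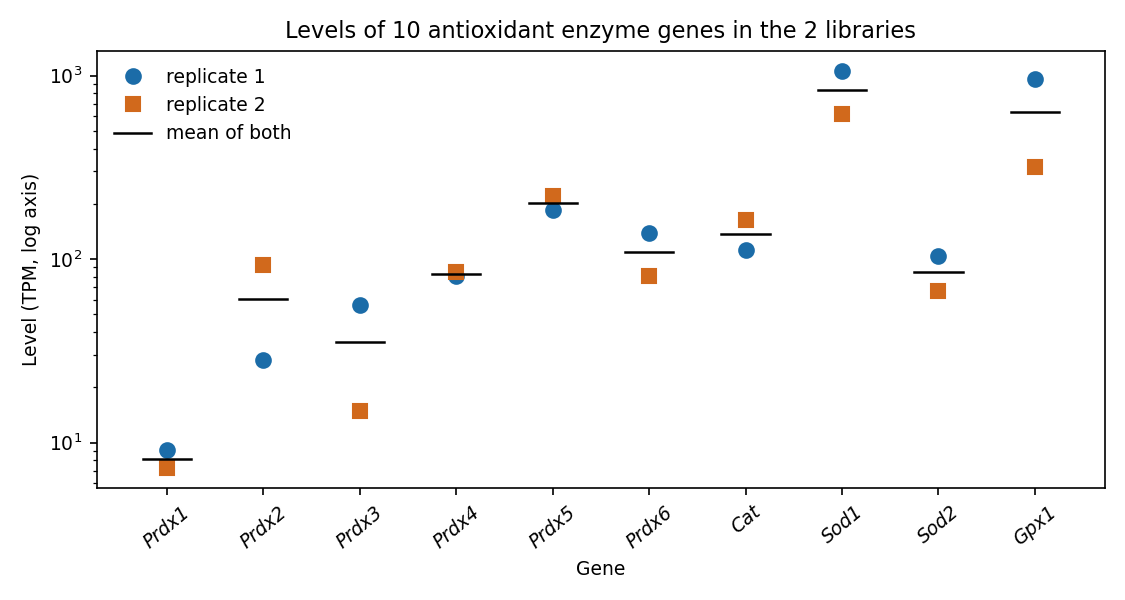
Level of each gene in TPM on a log axis, with a circle for replicate 1, a square for replicate 2 and a bar at their mean. Sod1 (1064 and 613 TPM) is the highest in both libraries and Prdx1 (9.05 and 7.27 TPM) the lowest, and the points of Prdx2, Prdx3 and Gpx1 lie more than 2-fold apart.

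Sod1 (ENSMUSG00000022982.9, chr16:90220754-90226329, plus strand) encodes the cytosolic copper-zinc dismutase. Its level was 1064 TPM in replicate 1 and 613 TPM in replicate 2, or 839 ± 318 TPM (SD, n = 2), which ranked 178 of all genes. Sod2 (ENSMUSG00000006818.4, chr17:13006846-13040063, plus strand), the mitochondrial manganese enzyme, was listed at 104 and 66.55 TPM (85.1 ± 26.2 TPM, SD, n = 2). Both dismutases were lower in replicate 2, and the ratio between them varied little. Sod1 stood 10.3-fold above Sod2 in replicate 1 and 9.22-fold in replicate 2, a log2 ratio of 3.28 ± 0.11 (SD, n = 2). The size of this ratio depends on the length listed for Sod2-201. That length was 3824 bases in GENCODE M4, on which the TPM rest, and 5861 in M21. Counts, not divided by length, were 13443 and 15882 for Sod1 and 9482 and 12809 for Sod2.

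Gpx1 (ENSMUSG00000063856.7, chr9:108338903-108340343, plus strand) encodes the cytosolic and mitochondrial selenoenzyme that uses glutathione to reduce hydrogen peroxide. It was listed at 954 and 316 TPM (635 ± 451 TPM, SD, n = 2). Cat (ENSMUSG00000027187.6, chr2:103453849-103485160, minus strand), the heme enzyme of peroxisomes, was listed at 112 and 163 TPM (137 ± 36.1 TPM, SD, n = 2). Gpx1 therefore stood 8.55-fold above Cat in replicate 1 but 1.94-fold in replicate 2. Gpx1 was above Cat in both libraries, by an amount that the 2 libraries did not fix.

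The summed level of the 6 peroxiredoxins was 498 and 499.8 TPM (498.8 ± 1.39 TPM, SD, n = 2). In TPM this sum differed far less between the libraries than its parts did, while the summed scaled counts were 1.28-fold higher in replicate 2. Prdx5 held the largest part, 37.4% and 43.9%, and Prdx1 the smallest, 1.82% and 1.45%. Prdx2 held 5.68% of the sum in replicate 1 and 18.5% in replicate 2. Prdx6 held 27.7% and 16.3%, and Prdx3 11.2% and 2.97%.

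Prdx1 (ENSMUSG00000028691.8, chr4:116685544-116700822, plus strand), a cytosolic and nuclear member, was listed at 9.05 and 7.27 TPM (8.16 ± 1.26 TPM, SD, n = 2). Prdx2 (ENSMUSG00000005161.11, chr8:84969587-84974834, plus strand), also cytosolic, was listed at 28.3 and 92.3 TPM (60.3 ± 45.2 TPM, SD, n = 2). Prdx2 was above Prdx1 in both libraries, 3.13-fold in replicate 1 and 12.7-fold in replicate 2. Prdx3 (ENSMUSG00000024997.7, chr19:60864051-60874556, minus strand), the typical member of the mitochondrial matrix, was listed at 55.8 and 14.8 TPM (35.3 ± 29.0 TPM, SD, n = 2). Prdx3 stood 1.97-fold above Prdx2 in replicate 1 and 6.22-fold below it in replicate 2.

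Prdx4 (ENSMUSG00000025289.11, chrX:155323918-155340754, minus strand), which acts in the endoplasmic reticulum beside oxidative protein folding, was listed at 80.4 and 85.0 TPM (82.7 ± 3.26 TPM, SD, n = 2). Its 2 values lay 1.06-fold apart, the smallest ratio of TPM among the 10 members. Prdx5 (ENSMUSG00000024953.12, chr19:6906697-6910106, minus strand), found in mitochondria, peroxisomes and cytosol, was listed at 186 and 219 TPM (203 ± 23.4 TPM, SD, n = 2). It was the highest peroxiredoxin in both libraries, 3.33-fold above Prdx3 in replicate 1 and 14.8-fold in replicate 2. Prdx6 (ENSMUSG00000026701.11, chr1:161240112-161251219, minus strand), which also has phospholipase activity, was listed at 138 and 81.2 TPM (109.7 ± 40.2 TPM, SD, n = 2).

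Between the libraries, 5 of the 10 members differed at least 2-fold in scaled counts. Scaled counts are expected counts divided by library sizes with TMM factors, and a prior count of 2 was added in ratios. Among all 10632 genes with a summed count of at least 20, which the 10 members all passed, 26.8% differed that much. The share was 19.5% for genes higher in replicate 2 and 7.27% for genes higher in replicate 1. These ratios compare 2 libraries of the same group, so they describe reproducibility and carry no test of a condition. Their 95% intervals are exact binomial intervals and cover counting error only. In RNA from whole cultures, fewer cells of a type and less RNA per cell cannot be told apart.

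Prdx2 and Cat were higher in replicate 2. The count for Prdx2 was 560.0 in replicate 1 and 4405 in replicate 2, and its scaled count was 4.77-fold higher in replicate 2 (95% interval 4.37 to 5.23). The count for Cat was 2631 and 13672, a 3.15-fold higher scaled count (95% interval 3.03 to 3.29). Erythroid markers differed in the same direction: 4 of the 9 (Gata1, Hba-a1, Hbb-bs and Alas2) were at least 2-fold higher in replicate 2, and with TMM factors none was at least 2-fold higher in replicate 1. Tfrc, the transferrin receptor gene, was 1.99-fold higher in replicate 1 with TMM factors. With total counts the log2 ratio of Tfrc was -1.17 and that of Tal1 -1.04, both past 2-fold. Alas2, which encodes the first enzyme of heme synthesis in red cells, was listed at 1.82 and 6.70 TPM. Klf1 went the other way, with 786 and 350.5 TPM, as did Tfrc, with 86.5 and 20.6 TPM. The part of these markers in the results for Prdx2 and Cat was not tested.

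Prdx1, Prdx3 and Gpx1 were higher in replicate 1. The count for Prdx3 was 1858 in replicate 1 and 1031 in the deeper replicate 2, and its scaled count was 2.96-fold higher in replicate 1 (95% interval 2.75 to 3.20). The count for Gpx1 was 15588 and 10942, a 2.35-fold difference (95% interval 2.29 to 2.40). The count for Prdx1 was 334 and 265, a 2.06-fold difference whose 95% interval of 1.76 to 2.45 spans the 2-fold limit. Both mitochondrial and cytosolic enzymes are thus in this set.

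The other 5 members stayed within 2-fold. Scaled counts of Prdx5 were 1.59-fold and those of Prdx4 1.33-fold higher in replicate 2. Those of Sod1 were 1.39-fold and those of Sod2 1.22-fold higher in replicate 1. The log2 ratio of Prdx6, replicate 2 over replicate 1, was 0.09 with TMM factors, turned to -0.08 with total counts and was -0.76 on log2(TPM + 1). The median log2 ratio was -0.10 over the members and 0.06 over all genes tested. With total counts in place of TMM factors, the median over all genes shifted by -0.17.

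For Prdx1, Prdx6 and Cat the log2 ratio differed most between scaled counts and TPM, which divides by transcript length. The effective length, the length that the authors' estimate divides by, was 1487 bases for Prdx1 in replicate 1 and 696 in replicate 2. For Cat it was 951 and 1604 bases, and for Prdx6 it was 1154 and 1630 bases. On the log2(TPM + 1) scale, which understates differences of low genes, the ratio was 0.54 for Cat and -0.28 for Prdx1, both within 2-fold. On that scale 3 members (Prdx2, Prdx3 and Gpx1) differed at least 2-fold, against 24.3% of all genes tested.

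**Figure D2:**
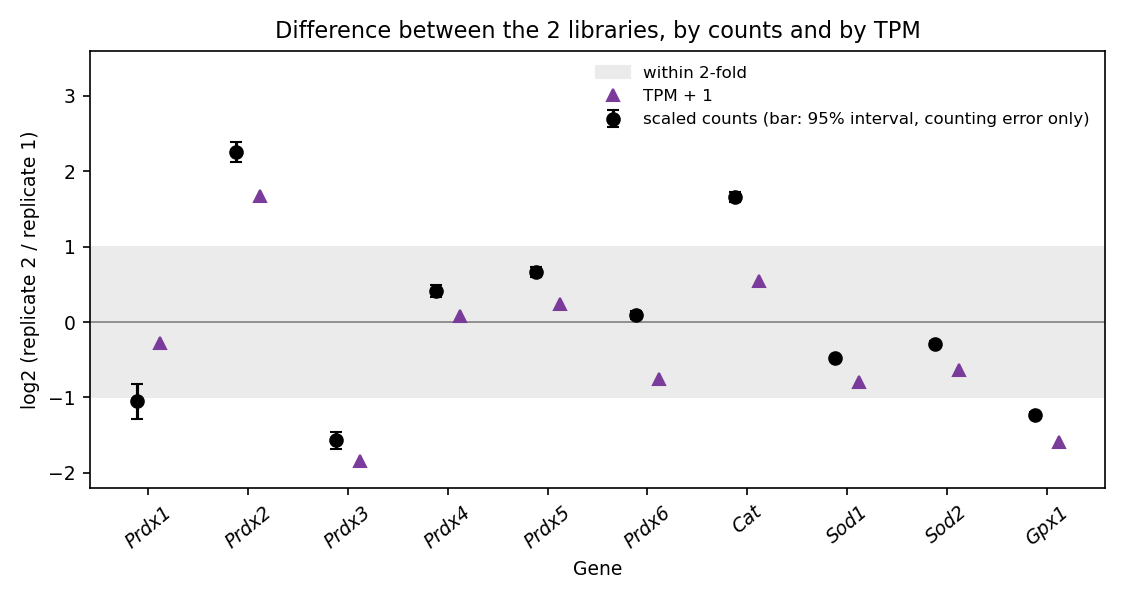
Log2 ratio of replicate 2 over replicate 1 for each gene, from scaled counts (circles, with bars for the 95% interval of counting error) and from TPM + 1 (triangles); the grey band is within 2-fold. By counts, Prdx2 and Cat lie above the band and Prdx1, Prdx3 and Gpx1 below it, while the triangles of Cat and Prdx1 lie inside it.

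The authors' estimate also assigned reads to different annotated transcripts in the 2 libraries. The tables list 39 transcripts of the 10 genes, and each has a percent of its gene's TPM. Prdx3, Sod1 and Sod2 have a single listed transcript. Prdx4-201 held 98.5% and 97.8% of Prdx4. The same transcript led in both libraries for 6 of the 10 genes, and the leading transcript differed for Prdx1, Prdx2, Prdx6 and Cat.

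Gpx1 was assigned almost wholly to Gpx1-202, with 97.0% of its TPM in replicate 1 and 90.8% in replicate 2. Gpx1-201, which carries the coding sequence with the selenocysteine codon, held 2.88% and 8.73%. In TPM, Gpx1-201 was level, with 27.4 and 27.6, and Gpx1-202 held the whole difference of the gene, with 926 and 287. These transcripts use the same donor at chr9:108339558 and acceptors 3 bases apart. The lines below show the junctions, with exon 1 in lower case and exon 2 in capitals.
Gpx1-201: cagttcggacaccagGAGAATGGCAAGAAT
Gpx1-202: cagttcggacaccagAATGGCAAGAATGAA
Exon 1 of Gpx1-202 still holds the TGA codon at chr9:108339451-108339453, but its annotated coding sequence of 432 bases begins 3′ of it, against 603 bases in Gpx1-201. Whether Gpx1-202 can also be read through the TGA codon was not tested. Transcripts whose exons hold the codon made up all of the gene's TPM within rounding in both libraries.

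Cat was divided between Cat-201, with a coding sequence of 1581 bases, and Cat-202, with 528 bases. Cat-201 held 16.8% of the TPM in replicate 1 and 53.3% in replicate 2, and Cat-202 held 83.2% and 46.7%. The level of Cat-201 was 18.8 and 86.6 TPM, while that of Cat-202 was 92.8 and 76.0 TPM. The higher level of Cat in replicate 2 was thus in the transcript for the full enzyme. The junctions below tell the 2 transcripts apart.
Cat-201: gattctccacagtcaCTGGAGAGTCAGGCT
Cat-202: tactccaaggcaaagGTGTTGAACGAGGAG
The line for Cat-201 joins exon 3 (lower case) to exon 4 (capitals). The line for Cat-202 joins a base inside exon 3 to a base inside exon 11 and leaves out 1053 bases of the mRNA. Both ends carry the same 10 bases, CAAAGGTGTT, so the place of the junction within them cannot be told from the sequence. Cat-202 is short, and by expected counts its part was smaller, 56.2% in replicate 1 and 18.3% in replicate 2.

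Prdx5 was led by Prdx5-204 with 81.5% and 67.4% of its TPM. This transcript skips exon 3 of Prdx5-201, directly after the exon with the catalytic codon, and carries the annotation tag not_organism_supported. Prdx5-201, with the full coding sequence of 630 bases, held 7.01% in replicate 1 and 32.3% in replicate 2, or 13.0 and 70.8 TPM. Prdx5-202, which retains an intron, held 11.5% and 0.30%. Prdx5-204 keeps the catalytic codon, which lay in the coding sequence of 88.5% of the TPM in replicate 1 and 99.7% in replicate 2. In the lines below, exon 2 is in lower case and the next exon in capitals, and the last lower-case bases overlap the catalytic window printed above.
Prdx5-201: cctggctgttctaagACCCACCTGCCTGGG
Prdx5-204: cctggctgttctaagGTTCGGCTCCTGGCT
By expected counts the leading transcript of Prdx5 changed between the libraries, with 52.1% for Prdx5-204 in replicate 1 and 59.9% for Prdx5-201 in replicate 2.

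Prdx6 had little of its level in replicate 1 in transcripts whose annotated coding sequence holds the catalytic codon. The catalytic codon lay in the coding sequence of 9.73% of its TPM in replicate 1 and 51.1% in replicate 2. With transcripts that hold the codon in an exon but have no coding annotation, the share was 14.0% and 69.2%. The full coding transcript Prdx6-202 held 8.67% and 50.3%, or 11.98 and 40.9 TPM. Most of the rest in replicate 1 lay in Prdx6-206, a processed transcript without a coding annotation (45.0% and 20.9%), and in Prdx6-208, annotated for nonsense-mediated decay (32.0% and 1.87%). Prdx6-207 held 0% and 12.1%, Prdx6-209, a single-exon retained intron, 9.03% and 8.12%, and Prdx6-205 4.27% and 5.99%. The junctions of Prdx6-202 and Prdx6-208 start from the same exon 1 (lower case), and Prdx6-208 passes over exon 2, where the codon lies.
Prdx6-202: tttcctgggagattcATGGGGCATTCTCTT
Prdx6-208: tttcctgggagattcGACATCAATGCTTAC
In TPM the gene level of Prdx6 was higher in replicate 1, while that of its full coding transcript was higher in replicate 2.

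Prdx1 rested on few counts, and different transcripts held them in the 2 libraries. Prdx1-204 and Prdx1-202, which share the full coding sequence, held 52.7% and 47.3% in replicate 1 but 14.1% and 0% in replicate 2. Prdx1-205, a model whose 3′ end is incomplete, held 0% and 85.1%. Models that are cut short in this way overlap the full transcripts, and the catalytic codon lay in the coding sequence of 100% and 99.2% of the TPM. The part of Prdx1-205 depends on the measure. By the authors' posterior mean estimate it was 5.43% and 61.2%, and by expected counts 0% and 56.1%.

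Prdx2 was led by Prdx2-205, a retained-intron transcript with 41.4% of its TPM, in replicate 1 and by Prdx2-208, which has the full coding sequence, with 52.1% in replicate 2. Prdx2-205 held 0% in replicate 2, and Prdx2-208 held 41.2% in replicate 1, nearly level with Prdx2-205. By expected counts Prdx2-208 led in both libraries, with 53.7% and 58.5%, against 21.4% and 0% for Prdx2-205. Prdx2-204, with an incomplete 3′ end, held 0.13% and 36.7%. Prdx2-206, another retained intron, held 6.84% and 1.04%, and Prdx2-203 held 5.32% and 0.79%. The catalytic codon lay in the coding sequence of 51.8% of the TPM in replicate 1 and 95.4% in replicate 2. Summed over its 4 transcripts with the full coding sequence, Prdx2 stood at 14.6 and 54.1 TPM.

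**Figure D3:**
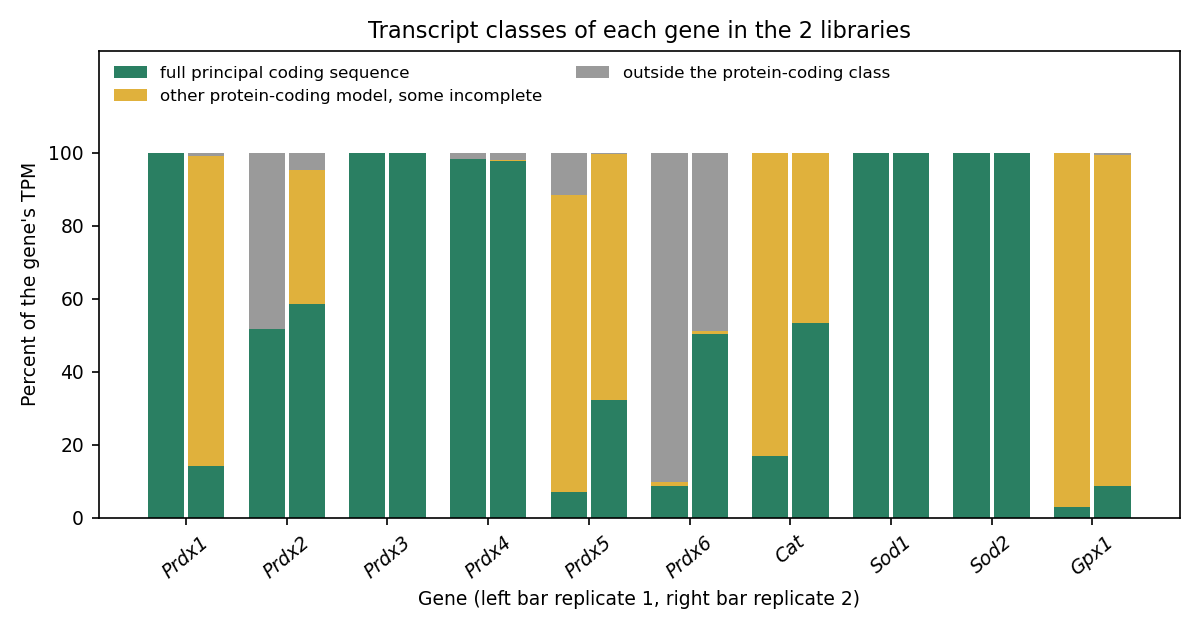
Percent of each gene's TPM in transcripts with the full principal coding sequence (green), in other protein-coding models, some with an incomplete end (yellow), and in transcripts outside the protein-coding class (grey), with replicate 1 on the left and replicate 2 on the right of each pair of bars. Prdx3, Sod1 and Sod2 are green in full, Gpx1 is green for 2.88% and 8.73%, and the green part of Prdx6 is 8.67% and 50.3%.

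Some counts may be shared with other genes. On the opposite strand, Prdx2 overlaps Rnaseh2a by 181 bases and Junb by 351 bases, Prdx5 overlaps Trmt112 by 409 bases, and Sod1 overlaps Scaf4 by 650 bases. Whether the authors counted by strand is not stated in the sources used here, so reads in these overlaps cannot be told apart. Rnaseh2a was listed at 856 and 584 TPM, above Prdx2 in both libraries. Near copies took few counts. Among genes that share runs of 50 bases with a member's coding sequence, the highest was Gm7204, a copy of Prdx1, with 14.2 and 4.0 counts. The others were Gm21399 and Gm15974 for Prdx1, Tdpx-ps1 and Prdx2-rs3 for Prdx2, Prdx6b for Prdx6 and Gm8566 for Sod1, each with at most 5.01 counts in a library.

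The partners of these enzymes were taken as 7 lists with 58 genes, of which 42 reached 1 TPM in both libraries. Of the 46 with a summed count of at least 20, 6 were at least 2-fold higher in replicate 2 and 5 in replicate 1, or 23.9% against 26.8% of all genes. Genes named in the next paragraphs only because they passed 2-fold (Txnip, Gclm, Sephs2, Hmox1, Pgd, Ncf1, Ncf4 and Pex7) were chosen after their values were seen. With total counts in place of TMM factors, Txnip and Nfe2l2 fell short of 2-fold and Glrx passed it. For 10 of the 46 genes the ratio had opposite signs by TPM and by scaled counts, among them Txnrd1, Srxn1, Gpx4, Cyba and Pex14.

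The thioredoxin system, which reduces the peroxiredoxins, had 9 of 10 genes at 1 TPM in both libraries. Mitochondrial Txn2 was the highest at 278 and 315 TPM, 7.96-fold and 12.4-fold above cytosolic Txn1 at 34.9 and 25.4 TPM. Txnrd1, the cytosolic thioredoxin reductase, was listed at 68.5 and 64.0 TPM. Srxn1, which repairs peroxiredoxins whose cysteine is overoxidised, was listed at 7.93 and 11.3 TPM, but its scaled count was 1.52-fold higher in replicate 1. Sesn3 was the lowest at 0.040 and 0.030 TPM. Of 9 genes tested, 1 was at least 2-fold higher in replicate 2 (Txnip, which encodes a thioredoxin inhibitor) and none in replicate 1, with a median log2 ratio of 0.26.

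The glutathione system, which supplies Gpx1 and Prdx6, had 8 of 9 genes at 1 TPM in both libraries. Glrx5, a mitochondrial glutaredoxin of iron-sulfur cluster assembly, was the highest at 1320.5 and 733 TPM, and Slc7a11, a cystine carrier, the lowest at 0.040 and 0.020 TPM. Gsr, the glutathione reductase, was listed at 71.0 and 31.8 TPM. Of 8 genes tested, none was at least 2-fold higher in replicate 2 and 1 was in replicate 1. That gene, Gclm, the modifier subunit of the first enzyme of glutathione synthesis, was listed at 930.2 and 372 TPM, near the values of Gpx1. The median log2 ratio of the list was -0.69.

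Among the other peroxidases and dismutases, only Gpx4 and Ccs of 9 genes reached 1 TPM in both libraries. Gpx4, which reduces lipid hydroperoxides in membranes, was listed at 968 and 1724 TPM. It was level with Gpx1 in replicate 1 (1.01-fold) and 5.45-fold above it in replicate 2. Its log2 ratio was 0.83 on log2(TPM + 1) but -0.16 by scaled counts. Gpx2, Gpx5, Gpx6, Gpx7 and Gpx8 had no count in either library, and Gpx3 and Sod3 had 2 counts and 1 count in replicate 1 and none in replicate 2.

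Ccs, the chaperone that loads copper into the Sod1 protein, was listed at 3.94 and 61.2 TPM. Its counts were 90 and 2905, a log2 ratio of 4.27 (95% interval 3.99 to 4.61). No annotated gene overlaps Ccs in the models used. Sod1, its client, went the other way, 1.39-fold higher in replicate 1.

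All 6 genes of the selenocysteine machinery reached 1 TPM in both libraries. Trnau1ap was the highest at 159 and 83.0 TPM and Sepsecs, which makes selenocysteine on its transfer RNA, the lowest at 2.05 and 1.32 TPM. Of these 6, none was at least 2-fold higher in replicate 2 and 1 was in replicate 1. This was Sephs2, which makes the selenium donor and is itself a selenoprotein, with 159 and 54.4 TPM. The median log2 ratio was -0.29.

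In the list of NRF2 and FOXO3 with their partners and targets, 9 of 10 genes reached 1 TPM in both libraries. Nfe2l2, which encodes the stress factor NRF2, was listed at 11.3 and 17.6 TPM. Keap1, which holds NRF2 in check, was listed at 89.1 and 64.4 TPM. Foxo3, a regulator of antioxidant genes in erythroid cells, was the highest of the list by mean level, with 202 and 74.2 TPM, though Pgd and Mafk were above it in replicate 2. By scaled counts its log2 ratio was -0.17. The lowest of the list was the NRF2 target Nqo1, with 0.51 and 0.18 TPM. Of 10 genes tested, 3 were at least 2-fold higher in replicate 2 (Nfe2l2, Hmox1 and Pgd) and 1 in replicate 1 (Nqo1, with 18 and 13 counts), with a median log2 ratio of 0.28. Pgd, an enzyme that makes the NADPH used by both reductases, was listed at 56.3 and 149.9 TPM. Hmox1, the heme oxygenase, was listed at 1.10 and 3.68 TPM.

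In the list for superoxide-producing oxidases, which covers the phagocyte enzyme with Nox1 and Nox4 of other oxidases, all genes but Cyba had few counts. Cyba, a membrane subunit that the phagocyte enzyme shares with other oxidases, was the only one of 7 genes at 1 TPM in both libraries, with 145 and 135 TPM. Cybb, the catalytic subunit of the phagocyte enzyme, had 1 count in replicate 1 and none in replicate 2, and Nox4 had none in either. Ncf4 was at least 2-fold higher in replicate 2, with 4 and 21 counts, and Ncf1 in replicate 1, with 21 and 8 counts. The median log2 ratio over the 4 genes tested was -0.09. All 7 genes of peroxisome import, which delivers Cat to its organelle, reached 1 TPM in both libraries. Pex14 was the highest at 51.9 and 51.2 TPM. Pex5, the receptor for most peroxisomal enzymes, was listed at 45.4 and 20.4 TPM. None of the 7 was at least 2-fold higher in replicate 2 and 1 was in replicate 1 (Pex7, the other import receptor), with a median log2 ratio of -0.49.

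**Figure D4:**
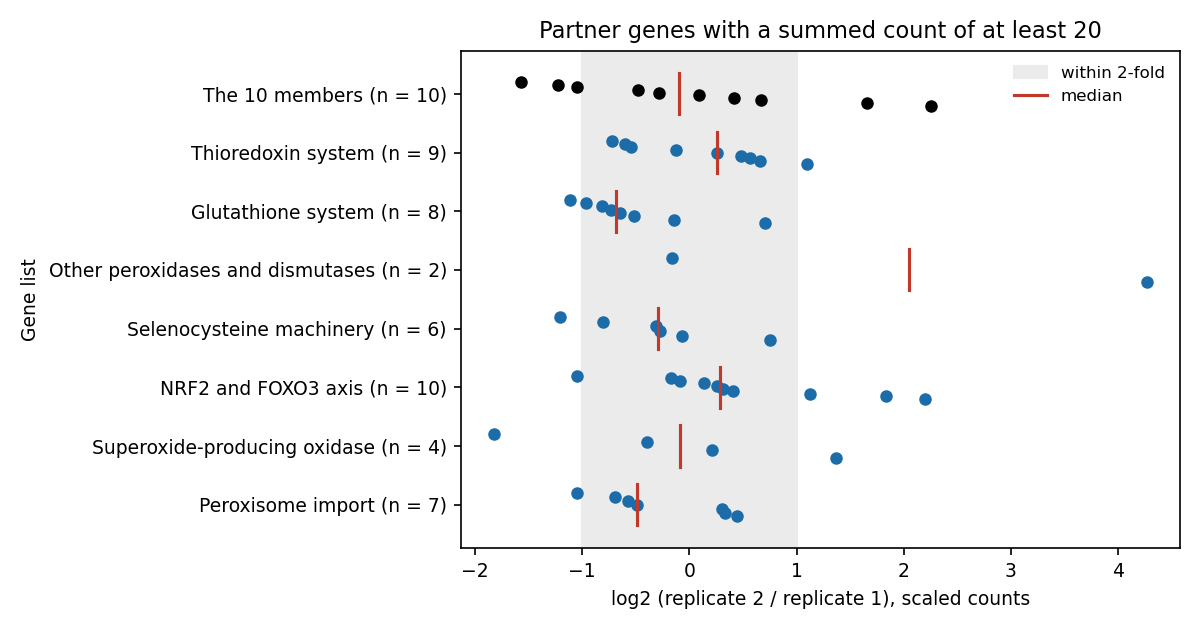
Log2 ratio of replicate 2 over replicate 1 by scaled counts for the 10 antioxidant enzyme genes (black) and for genes of the 7 partner lists with a summed count of at least 20 (blue), with the median of each in red and the range within 2-fold in grey. Ccs lies alone at 4.27, and the glutathione list has its median at -0.69.

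RefSeq promoter windows on GRCm38.p6, each placed around the gene start that RefSeq gives, matched 9 of the 10 members, all but Prdx6. In 7 of the 9 the window also held the start of the GENCODE locus printed above, and those of Sod2 and Prdx4 did not. Motifs were searched on both strands and shares were taken over 32851 windows. The antioxidant response element that NRF2 binds, TGACNNNGC, lay in 2 of the 9 (Prdx1 and Sod1), against 12.4% of all windows. The motif of GATA factors, searched as AGATAA with its variant TGATAA, and also as AGATAG with its variant TGATAG, lay in 0 of the 9, against 29.8%. The GC box GGGCGG lay in 9 of the 9, against 35.7%. The GC content of the windows was 47.0% for Gpx1 and 57.0% (Prdx3) to 68.7% (Prdx2) for the others. The windows taken as background were not matched for GC content, so its part in the shares of any motif was not tested. The box CCAAT lay in 4 (Cat, Prdx4, Sod1 and Sod2), against 37.4%. TATAAA lay in 3 (Prdx1, Prdx3 and Sod1), against 13.6%, and the E-box CACGTG in 1 (Prdx4), against 7.15%. Neither antioxidant response element overlapped a match to another motif. A match is a description of these letters in the window and not of binding.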

How the data were processed

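The 2 libraries form 1 group, and no condition was tested. Per the text deposited with the tables, reads were aligned to mm10 and quantified on GENCODE M4 from transcriptome alignments; aligner and quantifier were not given in the sources used here. The deposited expected counts are the authors' unnormalised estimates of fragments for each gene and transcript. The deposited TPM and FPKM values are scaled by the authors to effective length and depth, per the file headers. The deposited percent values give each transcript's part of its gene's TPM. The posterior mean columns were used as alternatives.

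Ratios used expected counts scaled with TMM (edgeR 4.0.16, R 4.3.3), a prior count of 2 and genes with a summed count of at least 20. DESeq2 1.42.0 size factors, total counts, a prior count of 0.5 and TPM + 1 were alternatives. The ratio step was tested on simulated data. With 2 libraries no spread within a side can be estimated, so no p-value is given. Symbols matched 42462 of 43346 genes by identifier. Gene models and sequences are those of GENCODE M21 (GRCm38), so boundaries may differ from M4. Of the 39 transcripts, 37 had the same length in both. The others were Sod1-201 (646 bases in M4 and 641 in M21) and Sod2-201 (3824 and 5861 bases). Catalytic codons were found by searching the coding sequences.

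The members and lists were chosen with earlier results of these data known. Named were all members, their transcripts with at least 5% of the gene, the highest and lowest of each list, and genes with a stated role, except 1 gene that is not reported here. No gene was ranked by likeness of pattern, which 2 libraries cannot give.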

Additional observations from a re-analysis of the deposited data

How the results depend on the processing

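The median level of the 10 members was 97.4 TPM, 81.65 with FPKM, and 88.7 to 107.6 TPM when either library was left out. The number of members at least 2-fold apart was 5 with TMM factors, total counts, DESeq2 size factors, posterior mean counts or a prior count of 0.5, and 3 on log2(TPM + 1). Over all genes, 2846 were at least 2-fold apart, 4368 when genes with a summed count of at least 1 were kept, and 2367 to 2986 under the other settings. Directions were the same under each count scaling for 9 members, all but Prdx6. The number of genes with the same leading transcript in both libraries was 6 by percent of TPM and 6 by share of counts, an alternative chosen after seeing the data, and 5 of these were shared (Prdx5 was lost and Prdx2 gained). By counts not divided by length, 8 of 10 members kept their place, and Sod2 and Prdx5 changed places. Depth limits Prdx1 most among the members, with a 95% counting interval of 1.76 to 2.45 around its 2.06-fold difference. With 2 libraries, the spread of each level is known only roughly. No paired analysis was possible because there is only 1 group.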
